A study of Mus musculus with 15 samples.

Results

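RNA polymerase I (Pol I) and RNA polymerase III (Pol III) machinery was followed through 36 listed mouse genes, 15 for Pol I and 21 for Pol III, out of 53379 mouse genes in the count tables. The genes were chosen by symbol as subunits and general factors of the enzymes. The rule used no measured value, but earlier results of these data were known when the list was chosen. All 36 were found and all 36 passed the filter on low counts, among 14485 genes tested.

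Pol I transcribes the large ribosomal RNA precursor in the nucleolus. Its work starts when the factor UBF, encoded by Ubtf, and the SL1 complex, built of TBP and the TAF1 proteins, mark the promoter and the factor encoded by Rrn3 brings the polymerase to it. Pol III makes transfer RNAs, the smallest ribosomal RNA and other short RNAs, and is placed by TFIIIA, TFIIIB and TFIIIC and held back by the repressor Maf1. The transcription factor MYC, which binds the E-box CACGTG, is known in other systems to raise the output of both enzymes, and lymphoma cells driven by MYC often have prominent nucleoli.

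The cells were mouse leukemia cells of the T lineage in culture (T-ALL, a blood cancer of immature T cells). Per the study's methods they came from tumors of mice carrying EμSRα-tTA and tet-O-MYC, in which a lymphoid enhancer and promoter drive a transactivator that keeps a human MYC transgene on until doxycycline is added. PolyA libraries, 3 for each of 5 times, were sequenced at 0 h (mock treated, MYC on) and 2, 4, 8 and 24 h of doxycycline (MYC off), 15 in all. Both transgenes were present in every group, no library received doxycycline with MYC kept on, and MYC loss, the drug and time in culture therefore cannot be told apart. Whether the 3 libraries of a time were separate cultures is not in the labels, so p-values measure the spread between these libraries, which may be technical.

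As a check of the labels, the MYC transgene had 2079, 2017 and 1975 CPM in the 0 h libraries, 24, 27.1 and 23.4 in those of 2 h and 8.07, 9.22 and 11 in those of 4 h. At 8 h the transgene had 5.68, 6.08 and 4.99 and at 24 h 3.4, 2.94 and 3.54. Every library after doxycycline was below every 0 h library. Values are CPM, counts scaled to a common library size, on library totals scaled by TMM, a factor that corrects for composition, and total counts ran from 25852711 to 27102318 per library. A value of 3 counts, the most that a count of 0 allows, was at most 0.119 CPM, far under every member. All 15 T cell markers were measured, and their summed CPM was 11400 to 11800 at 24 h, against 6840 to 6950 at 0 h. B cell markers summed to at most 0.439 CPM and erythroid markers to at most 0.773 CPM in any library. Myeloid markers summed to 24.0 to 29.5 CPM at 24 h, against 9.42 to 11.6 CPM at 0 h, with 3 of 7 (Lyz2, Cd14 and S100a8) at 0 throughout and Itgam at 19.3 to 22.0 CPM at 24 h, against 2.31 to 2.73 CPM at 0 h. Csf1r, another of them, was at 4.70 to 7.25 CPM at 24 h, against 6.73 to 8.87 CPM at 0 h. Stromal and endothelial markers summed to 117 to 139 CPM at 24 h, against 55.4 to 58.5 CPM at 0 h, nearly all of it Pecam1, with 3 of 6 at 0 throughout, and the part of these shifts in the results was not tested. One library stood apart: over genes, the counts of 24 h replicate 3 differed from the other 24 h libraries with a chi-square per degree of freedom of 85.0 and 93.7, against 2.94 to 17.9 for every other pair within a time. Results at 24 h are therefore also given without it where it matters.

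Promoters of members on which the results turn are shown first, because the best known DNA contact of MYC is the E-box. The sequences are RefSeq windows on GRCm38.p6, 5′ to 3′ on the gene's strand and with starts that can differ from those of GENCODE, from 250 bases before the transcript start and, where an E-box lies just after it, to the end of that E-box. Capitals mark CACGTG and, in Polr3e, also GGTTCGA. Polr1b is shown as the member with the deepest fall, Cd3eap and Rrn3 as Pol I genes with E-boxes, and Polr3e and Polr3gl as Pol III genes with E-boxes that moved in opposite directions.
Polr1b (chr2:129100746-129100995, plus strand): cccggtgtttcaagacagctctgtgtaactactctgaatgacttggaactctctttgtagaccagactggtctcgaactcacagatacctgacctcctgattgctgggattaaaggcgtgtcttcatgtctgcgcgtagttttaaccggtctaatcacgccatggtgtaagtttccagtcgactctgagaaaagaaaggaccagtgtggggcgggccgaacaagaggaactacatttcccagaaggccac
Cd3eap (chr7:19359458-19359733, minus strand): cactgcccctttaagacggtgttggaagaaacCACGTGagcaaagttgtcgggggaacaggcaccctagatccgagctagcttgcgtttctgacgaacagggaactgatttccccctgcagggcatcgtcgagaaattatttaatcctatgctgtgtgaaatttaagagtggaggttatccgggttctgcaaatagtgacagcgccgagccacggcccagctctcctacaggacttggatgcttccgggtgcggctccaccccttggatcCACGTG
Rrn3 (chr16:13780449-13780698, plus strand): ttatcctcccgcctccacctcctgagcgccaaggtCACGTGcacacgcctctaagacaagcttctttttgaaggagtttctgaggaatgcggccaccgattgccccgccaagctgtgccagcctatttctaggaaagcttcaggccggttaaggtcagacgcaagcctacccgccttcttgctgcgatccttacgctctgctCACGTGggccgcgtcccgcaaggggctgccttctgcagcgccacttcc
Polr3e (chr7:120917528-120917788, plus strand): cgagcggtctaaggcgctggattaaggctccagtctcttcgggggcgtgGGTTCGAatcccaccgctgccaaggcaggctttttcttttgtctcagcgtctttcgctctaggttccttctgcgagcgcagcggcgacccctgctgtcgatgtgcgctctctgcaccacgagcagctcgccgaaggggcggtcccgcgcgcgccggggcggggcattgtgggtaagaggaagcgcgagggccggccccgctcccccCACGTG
Polr3gl (chr3:96594182-96594431, minus strand): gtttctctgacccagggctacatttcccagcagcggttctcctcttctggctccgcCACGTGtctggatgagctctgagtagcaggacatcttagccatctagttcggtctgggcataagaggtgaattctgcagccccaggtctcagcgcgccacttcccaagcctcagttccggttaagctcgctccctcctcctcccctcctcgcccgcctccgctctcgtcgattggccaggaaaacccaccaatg

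A RefSeq promoter window of 300 bases, 250 before and 50 after the start, was matched for 30 members. No window was matched for Polr3a, Polr3d, Crcp, Brf1, Brf2 and Maf1, so their promoters were not searched. CACGTG, which reads the same on both strands, was in the window of 6 of the 30 (20%), namely Cd3eap, Rrn3, Polr3c, Polr3e, Polr3gl and Gtf3c6. The same letters were in 7.15% of all 32851 windows and in the windows of 11.7% of 9557 tested genes. Cd3eap held it at -218 and 21, Rrn3 at -215 and -48, Polr3e at 6 and Polr3gl at -194, counted from the transcript start to the first base of the motif. Polr1b had none in its window. The 6 genes did not share one course: Cd3eap, Rrn3 and Polr3e fell from 2 h on, Polr3c was called lower at 24 h, Gtf3c6 was called at no time and Polr3gl rose. The Polr3e window also held GGTTCGA, the core of the internal B box of transfer RNA genes, at -201. These letters, searched on both strands after the sequence had been seen, were in 2 of the 30 members (Polr3e and Taf1d) and in 0.91% of all windows. The member figure counts genes with a match in any of their windows, and the background counts single windows, so these shares are not alike. A match is a description of letters in a window and not a bound site.

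Most of the machinery was lower after MYC was turned off, and the median fall was larger among the Pol I genes than among the Pol III genes. At 2 h 11 of the 36 genes were lower and 2 higher at an adjusted p under 0.01 (edgeR quasi-likelihood test, Benjamini-Hochberg over all tested genes), where 8.59% of all tested genes were lower and 6.60% higher. At 4 h 20 were lower and 2 higher, against 19.9% and 18.1% of all tested genes. At 8 h 23 were lower and 3 higher, against 25.1% and 25.3%. At 24 h 25 were lower and 2 higher, against 28.1% and 30.7%. The share of members called lower was thus above the background at every time, and the share called higher was near it at 2 h and below it at 4, 8 and 24 h. Without 24 h replicate 3, 27 were lower and 3 higher at 24 h, 17 were lower at 2 h and 6 were higher at 4 h, the spread being estimated over all times. Over all 14670 genes tested without that library, 4504 were lower and 4699 higher at 24 h, 2167 were lower at 2 h and 3882 higher at 4 h, against 4076, 4443, 1244 and 2629 of 14485 with it. CPM is a gene's share of the counted RNA, so lower and higher are relative to the other genes. Total RNA per cell was not measured by these counts. In bulk RNA, less RNA of a gene per cell cannot be told apart from fewer cells that make it. Over the time course 29 of 36 changed, against 74.2% of all tested genes.

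The median log2 fold change of the 36 genes was -0.22, -0.54, -0.72 and -0.77 after 2, 4, 8 and 24 h, where the median of all tested genes was 0.01, 0.08, 0.09 and 0.07. For the 15 Pol I genes the medians were -0.38, -0.88, -0.91 and -1.18 at these times, and for the 21 Pol III genes -0.06, -0.20, -0.38 and -0.46. Of the Pol I genes 7, 11, 12 and 12 were lower at 2, 4, 8 and 24 h, with 1 higher at 8 h and at 24 h. Of the Pol III genes 4, 9, 11 and 13 were lower, with 2 higher at 2, 4 and 8 h and 1 at 24 h. Falls with a log2 fold change of -1 or less were found in 3, 8, 12 and 16 members at 2, 4, 8 and 24 h, against 0.967%, 6.99%, 10.2% and 12.3% of all tested genes. Of the 16 at 24 h, 11 were on the Pol I list, among them Polr1c and Polr1d, which Pol III shares. Without 24 h replicate 3, Twistnb (-0.90) and Taf1d (-0.88) no longer reached -1 and Polr3a (-1.03) did. The Pol I and Pol III lists were not tested against each other.

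**Figure D1:**
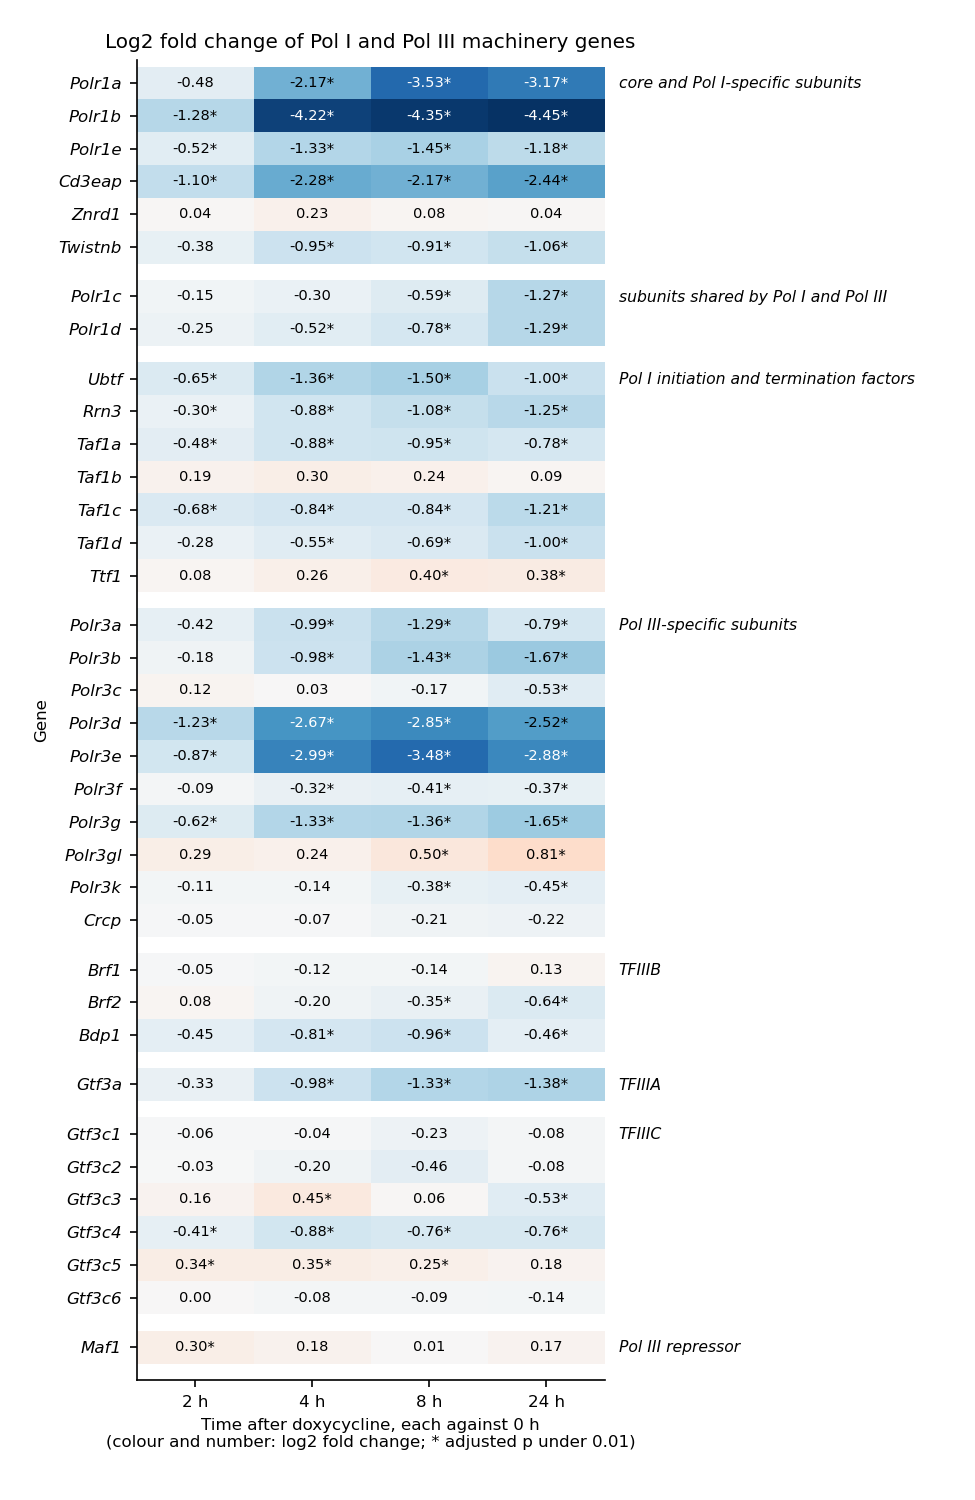
Log2 fold change of each of the 36 genes (rows, grouped by role) at 2, 4, 8 and 24 h against 0 h (columns). Each cell gives the value from the edgeR fit over 15 libraries, blue for lower and red for higher, and an asterisk marks an adjusted p under 0.01. Polr1b, Polr1a, Cd3eap, Polr3d and Polr3e are the darkest rows, and Znrd1, Taf1b, Crcp, Brf1, Gtf3c1, Gtf3c2 and Gtf3c6 carry no asterisk.

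The first call was a fall at 2 h for 11 genes, at 4 h for 9, at 8 h for 3 and at 24 h for 1. In all, 20 genes were lower at 4, 8 and 24 h, and 11 of them already at 2 h. Read without a test, every library was below every 0 h library for 21, 26, 28 and 25 members at 2, 4, 8 and 24 h. The background of such non-overlap was 26.8%, 30.2%, 34.1% and 33.1% of all tested genes. Every library was above every 0 h library for 6, 6, 4 and 3 members, against 25.2%, 35.0%, 38.9% and 36.1%. Fewer members thus rose clear of the 0 h libraries than genes at large.

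Of the 6 genes for Pol I-specific subunits, 5 were lower at 4, 8 and 24 h, led by the catalytic pair. Polr1b (ENSMUSG00000027395.15, chr2:129100995-129126594, plus strand, GRCm38 with GENCODE M21), the second largest subunit, had 137, 138 and 136 CPM in the 0 h libraries, 53.4, 59.5 and 56.6 in those of 2 h and 8.76, 6.43 and 6.89 in those of 4 h. At 8 h Polr1b had 8.14, 6.0 and 5.98 and at 24 h 5.25, 6.32 and 7.22. It fell within 2 h and was at its lower level by 4 h, with no overlap between any later library and the 0 h libraries. Its log2 fold change was -1.28 ± 0.117 (SE), -4.22 ± 0.137 and -4.45 ± 0.138 after 2, 4 and 24 h (adjusted p = 1.59e-06, 2.80e-12 and 4.39e-13), the deepest of the 36 genes at each of these times. At 24 h it stood at 4.57% ± 0.721 (SD, n = 3) of its 0 h mean. Between 4 h and 24 h it did not pass the test (-0.23, adjusted p = 0.167).

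Polr1a (chr6:71909053-71984935, plus strand), which encodes the largest subunit and shares the active site with Polr1b, was first called at 4 h. It had 171, 165 and 150.3 CPM in the 0 h libraries, 117, 114 and 118 in those of 2 h and 42, 35 and 30.9 in those of 4 h. At 8 h Polr1a had 16.5, 12.8 and 12.9 and at 24 h 15.7, 15.5 and 22.9. The 2 h libraries were below the 0 h libraries but did not pass the test (-0.48, adjusted p = 0.0164), and by 8 h the level was 8.66% ± 1.29 of that at 0 h. The log2 fold change was -2.17 ± 0.143, -3.53 ± 0.153 and -3.17 ± 0.15 after 4, 8 and 24 h (adjusted p = 5.22e-09, 2.29e-11 and 4.04e-11). It was also lower at 24 h than at 4 h (-1.0 ± 0.145, adjusted p = 2.88e-05). Replicate 3 was the highest of the 24 h libraries, and without it the fold change against 0 h was -3.38.

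Cd3eap and Polr1e encode the dimer that sits on the Pol I core and helps elongation. Cd3eap (chr7:19356014-19359483, minus strand) had 60.1, 59.4 and 56.3 CPM in the 0 h libraries, 27.3, 26.9 and 27.7 in those of 2 h and 12, 11.7 and 12.6 in those of 4 h. At 8 h Cd3eap had 13.8, 12.4 and 13 and at 24 h 10.7, 11.6 and 10.2. Most of the drop was there by 4 h, with log2 fold changes of -1.10 ± 0.0686, -2.28 ± 0.0727 and -2.44 ± 0.0728 at 2, 4 and 24 h (adjusted p = 4.64e-08, 2.26e-12 and 2.93e-13). Its partner Polr1e had 52.3, 55.4 and 53.7 CPM in the 0 h libraries, 37.4, 37.2 and 37.8 in those of 2 h and 21.9, 19.7 and 22.6 in those of 4 h. At 8 h Polr1e had 19.6, 19.1 and 20.5 and at 24 h 27, 25.5 and 18.9. The fall of Polr1e was shallower, -0.52, -1.33 and -1.18 after 2, 4 and 24 h, with all of them past the test.

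Twistnb, a stalk subunit that meets the factor Rrn3, had 130, 135 and 136 CPM in the 0 h libraries, 98, 106 and 104 in those of 2 h and 62.2, 71.2 and 73.6 in those of 4 h. At 8 h Twistnb had 64.5, 70.5 and 78.7 and at 24 h 74.5, 68.7 and 49.5. Its level had dropped to 51.6% ± 4.47 of the 0 h mean by 4 h and was 48% ± 9.77 at 24 h, with log2 fold changes of -0.95 and -1.06 after 4 and 24 h (-0.90 without 24 h replicate 3, its lowest library). Znrd1 is the small subunit that takes part in transcript cleavage. It had 20.6, 21.1 and 24 CPM in the 0 h libraries, 24.1, 23.4 and 20.2 in those of 2 h and 24.3, 27.3 and 25.6 in those of 4 h. At 8 h Znrd1 had 22.5, 24.2 and 23 and at 24 h 23.6, 23.9 and 19.9. It was the only one of the 6 Pol I-specific subunits called in no comparison, with 0.04 at 24 h (adjusted p = 0.739).

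The subunits also drew apart in their levels per annotated gene length. At 0 h the 6 Pol I-specific subunits lay between 35.8 TPM (a deposited level per annotated gene length) for Polr1a and 70.1 TPM for Znrd1, a 1.96-fold range. The range was 2.87-fold, 24.7-fold, 24.4-fold and 25.1-fold after 2, 4, 8 and 24 h, with Polr1b lowest from 4 h on (3.64 TPM at 24 h) and Znrd1 highest throughout (91.4 TPM at 24 h). TPM was not scaled by TMM, so it compares genes within a time and not a gene between times. The length used was 11871 bases for Polr1a and 819 for Znrd1, so the order of genes depends on the annotation.

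Polr1c and Polr1d encode the assembly pair that Pol I and Pol III share. Polr1c had 61.4, 66 and 64.6 CPM in the 0 h libraries, 58.3, 57.4 and 57.4 in those of 2 h and 49.5, 49.1 and 57.9 in those of 4 h. At 8 h Polr1c had 39.3, 42.8 and 45.8 and at 24 h 29.7, 29.4 and 20.5. Polr1d, more abundant in CPM, had 171, 184 and 185 CPM in the 0 h libraries, 148, 153 and 152 in those of 2 h and 118, 122 and 135 in those of 4 h. At 8 h Polr1d had 90.8, 108 and 116 and at 24 h 80.3, 83.2 and 56.7. Both fell step by step, with no overlap with 0 h from 2 h on. Polr1c was first called at 8 h (-0.59) and Polr1d at 4 h (-0.52), and at 24 h they stood at -1.27 ± 0.116 and -1.29 ± 0.12 (adjusted p = 9.77e-08 and 1.19e-07). They were also lower at 24 h than at 4 h (-0.97 and -0.77). In both genes 24 h replicate 3 was the lowest library, and without it the 24 h values were -1.11 and -1.14.

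**Figure D2:**
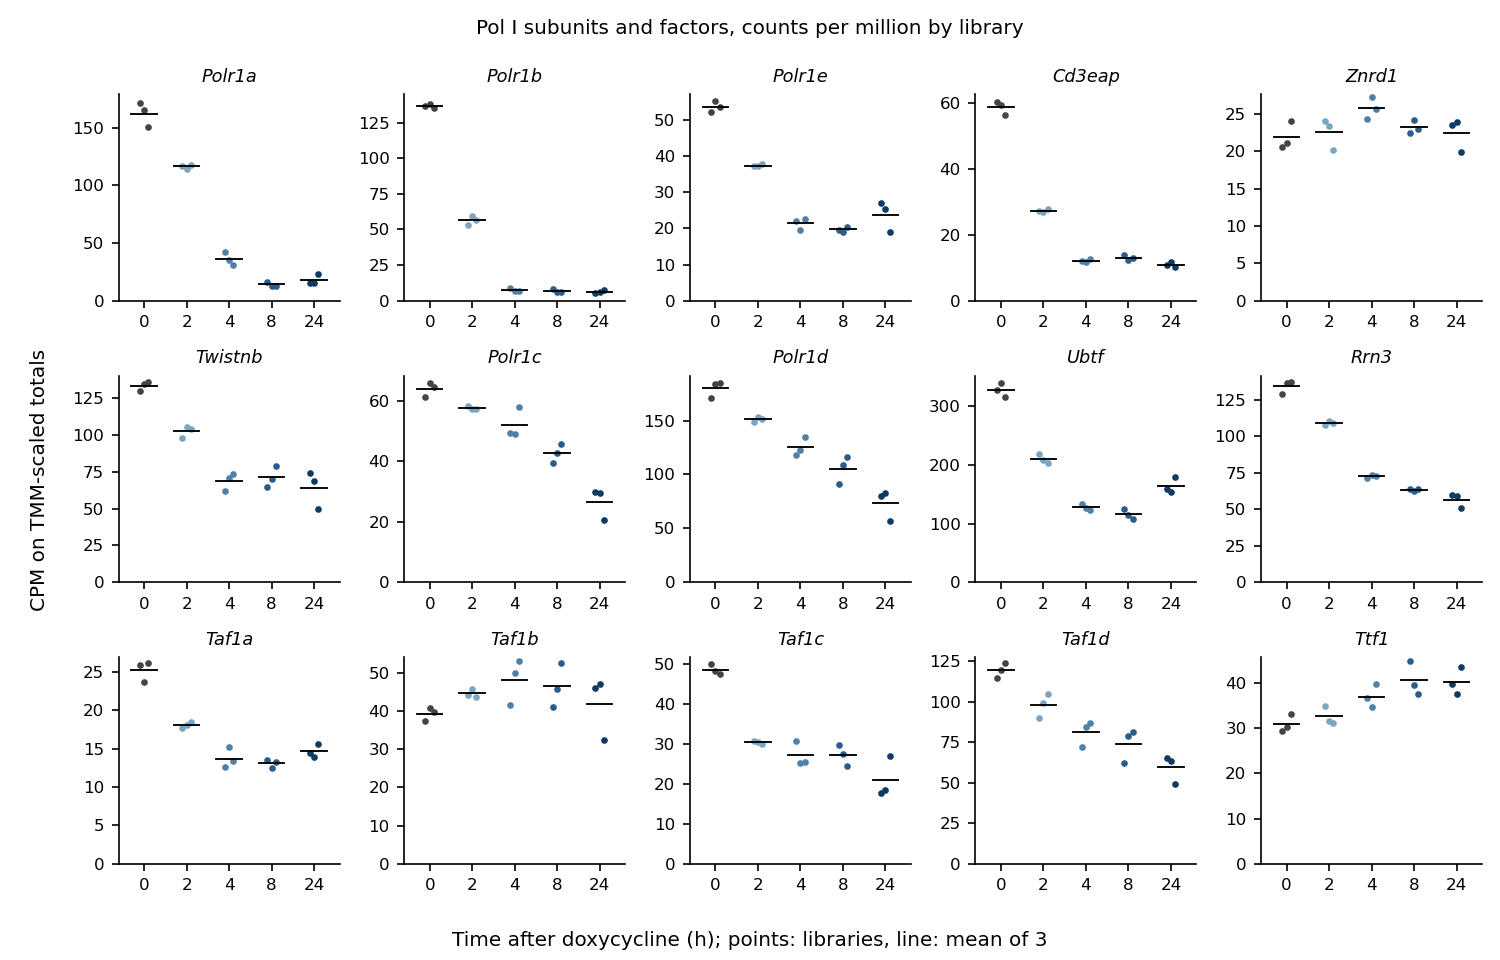
CPM on TMM-scaled totals of the 15 Pol I genes (y axis, from 0) in each library at 0, 2, 4, 8 and 24 h (x axis, not to scale in time). Points are libraries and lines are means of 3. Polr1b is at 5.25 to 7.22 CPM at 24 h and at 136 to 138 CPM at 0 h, whereas the libraries of Znrd1 and Taf1b at these times overlap.

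Of the 7 factors that start or end Pol I transcription, 5 fell, 1 rose and 1 did not pass the test at 24 h. Ubtf (chr11:102304560-102319742, minus strand), whose product UBF opens and marks the ribosomal RNA genes, had 328, 340.3 and 315 CPM in the 0 h libraries, 218, 208 and 203 in those of 2 h and 134, 127 and 123 in those of 4 h. At 8 h Ubtf had 124, 115 and 108 and at 24 h 158, 153 and 179. It was lower at every time and lowest at 8 h, with log2 fold changes of -0.65 ± 0.0716, -1.36 ± 0.0727, -1.50 ± 0.073 and -1.0 ± 0.072 at 2, 4, 8 and 24 h (adjusted p = 9.79e-06, 4.99e-10, 8.12e-11 and 5.89e-09). It was the only Pol I member higher at 24 h than at 4 h (0.36, adjusted p = 5.66e-04), a call lost when only the 2 times compared were fitted. Rrn3 (chr16:13780708-13814839, plus strand), whose product links the polymerase to the promoter, had 129, 136 and 137 CPM in the 0 h libraries, 107, 110.1 and 109 in those of 2 h and 71.6, 73.7 and 72.8 in those of 4 h. At 8 h Rrn3 had 63.6, 62.2 and 64.1 and at 24 h 59.6, 59.1 and 50.5. It fell step by step, with -0.30, -0.88 and -1.25 ± 0.0649 after 2, 4 and 24 h (adjusted p = 1.26e-10), and no library after 0 h reached the 0 h range. The 2 h call of Rrn3 was lost with no filter on low counts and when any of 5 libraries was left out.

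Of the genes for the TAF1 proteins of SL1, which read the ribosomal RNA gene promoter, 3 fell and 1 was not called. Taf1c had 50.1, 48.2 and 47.7 CPM in the 0 h libraries, 30.7, 30.5 and 30 in those of 2 h and 30.7, 25.1 and 25.5 in those of 4 h. At 8 h Taf1c had 29.7, 27.5 and 24.5 and at 24 h 17.7, 18.4 and 26.9. Its log2 fold changes were -0.68 and -1.21 ± 0.131 after 2 and 24 h (adjusted p = 7.07e-07 at 24 h), and -1.43 at 24 h without replicate 3, its highest 24 h library. Taf1d had 115, 119.6 and 124 CPM in the 0 h libraries, 90.1, 99.3 and 105 in those of 2 h and 72.3, 84.5 and 86.9 in those of 4 h. At 8 h Taf1d had 62.2, 78.8 and 81.5 and at 24 h 65.6, 63.7 and 49.1. It was lower from 4 h on, with -0.55 and -1.0 ± 0.118 after 4 and 24 h (adjusted p = 1.71e-06). Taf1a was lower at all 4 times, with values of -0.48 to -0.95. Taf1b had 37.3, 40.6 and 39.6 CPM in the 0 h libraries, 44.2, 45.8 and 43.6 in those of 2 h and 41.6, 49.9 and 53 in those of 4 h. At 8 h Taf1b had 40.9, 45.8 and 52.4 and at 24 h 45.8, 47 and 32.3. It was above 0 h in every library at 2, 4 and 8 h and overlapped it at 24 h, and was called at no time (0.09 at 24 h, adjusted p = 0.546). The difference between Taf1b and the other TAF1 genes was not itself tested. Exons of Taf1c share 16.7% of their bases with Dnaaf1 on the opposite strand, which was also lower at 24 h (-1.31), and Taf1d hosts several snoRNA genes. The sources used here do not give the strand setting of the counting, so reads of such pairs cannot be told apart.

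Ttf1, the factor that ends Pol I transcripts, was the only Pol I gene that rose. Its 0 h libraries ranged from 29.3 to 33.0 CPM, and its log2 fold change was 0.40 ± 0.0879 and 0.38 ± 0.0877 after 8 and 24 h (adjusted p = 0.00108 and 0.00111). Every library at 4, 8 and 24 h was above every 0 h library. The 8 h call was lost without 8 h replicate 1, and the 24 h call when only 24 h and 0 h were fitted.

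Among the 10 Pol III-specific subunits, 8 were lower and 1 higher at 24 h, and the dimer of Polr3d and Polr3e fell furthest. This dimer works in initiation and termination. Polr3e (chr7:120917744-120947432, plus strand) had 70.7, 65.7 and 68.5 CPM in the 0 h libraries, 37.8, 37.8 and 36.7 in those of 2 h and 9.34, 7.4 and 9.02 in those of 4 h. At 8 h Polr3e had 6.49, 5.7 and 6.1 and at 24 h 8.91, 8.79 and 10. Its libraries at 4, 8 and 24 h were all at or below 10.02 CPM, with log2 fold changes of -0.87 ± 0.082, -2.99 ± 0.0913, -3.48 ± 0.0943 and -2.88 ± 0.0899 at 2, 4, 8 and 24 h (adjusted p = 2.13e-06, 1.32e-12, 1.61e-13 and 4.49e-13). Polr3d (chr14:70438757-70443447, minus strand) had 29.5, 30.5 and 29.9 CPM in the 0 h libraries, 13.5, 13.1 and 11.6 in those of 2 h and 4.8, 4.84 and 4.51 in those of 4 h. At 8 h Polr3d had 4.91, 4.24 and 3.26 and at 24 h 4.88, 5.27 and 5.48. Its log2 fold changes were -1.23 ± 0.106, -2.67 ± 0.116, -2.85 ± 0.118 and -2.52 ± 0.114 at 2, 4, 8 and 24 h (adjusted p = 9.44e-07, 4.74e-11, 1.22e-11 and 2.41e-11). Neither gene passed the test between 24 h and 4 h.

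The catalytic pair of Pol III fell less. Polr3b (chr10:84622292-84727178, plus strand), the second largest subunit, had 99.9, 100 and 93.3 CPM in the 0 h libraries, 89.1, 85.5 and 84.6 in those of 2 h and 50.7, 50.3 and 47.2 in those of 4 h. At 8 h Polr3b had 38.6, 36.2 and 34 and at 24 h 30.6, 29.9 and 31.6. It was lower at each later time than at the time before in mean, with -0.98, -1.43 and -1.67 ± 0.0648 after 4, 8 and 24 h (adjusted p = 4.33e-12). Polr3a, the largest subunit, had 52, 51.4 and 49.7 CPM in the 0 h libraries, 38.8, 38.4 and 37.3 in those of 2 h and 27.7, 23.5 and 26.2 in those of 4 h. At 8 h Polr3a had 23.5, 19.7 and 19.4 and at 24 h 25.7, 24.3 and 38.4. It was lowest at 8 h (-1.29 ± 0.137, adjusted p = 7.60e-07), and its 24 h value of -0.79 became -1.03 without replicate 3, the library at 38.4 CPM. At 24 h Polr3b stood at 31.4% ± 0.876 of its 0 h mean, while the Pol I counterpart Polr1b stood at 4.57% ± 0.721.

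Polr3c, which with Polr3f forms part of the initiation subcomplex, was called lower at 24 h (-0.53 ± 0.0548, adjusted p = 3.69e-07). At 8 h it missed the threshold with -0.17 (adjusted p = 0.0152), although every 8 h library was below every 0 h library, and it was called there under 10 of 24 alternatives. Polr3f was lower with -0.41 to -0.32 at 4, 8 and 24 h, the 4 h call being lost with upper-quartile factors. Polr3k, a small subunit of the termination and cleavage step, was called lower with -0.38 and -0.45 after 8 and 24 h (-0.29 at 24 h without replicate 3). Its 8 h call was lost with the replicate number as a block and when any of 7 libraries was left out, and its 24 h call when only the times compared were fitted. The calls of Polr3k at both times and of Polr3f at 24 h were lost with library totals or upper-quartile factors in place of TMM. Crcp, a stalk subunit, had 34.8, 36 and 35.9 CPM in the 0 h libraries, 33.9, 32.4 and 36.7 in those of 2 h and 33, 32.5 and 36.2 in those of 4 h. At 8 h Crcp had 30.5, 30.1 and 31.9 and at 24 h 32.6, 35.1 and 23.9. It was called in no comparison (-0.22 at 24 h, adjusted p = 0.0859). Over the 10 subunits the range of TPM was 4.64-fold, 6.03-fold, 15.6-fold, 20.5-fold and 16.8-fold after 0, 2, 4, 8 and 24 h.

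Polr3g and Polr3gl encode alternative versions of the same subunit, and they moved in opposite directions. Polr3g is known from stem cells and tumors and Polr3gl as the version of most differentiated cells. Polr3g (chr13:81673843-81711013, minus strand) had 44.1, 45.2 and 44.9 CPM in the 0 h libraries, 28.6, 29.8 and 28.7 in those of 2 h and 16.3, 20.3 and 16.7 in those of 4 h. At 8 h Polr3g had 16.8, 16.8 and 18.6 and at 24 h 14.6, 14.5 and 13.9. Polr3gl (chr3:96577872-96594181, minus strand) had 30.9, 25.7 and 27.4 CPM in the 0 h libraries, 33.9, 33.4 and 35.7 in those of 2 h and 30, 35.5 and 33.4 in those of 4 h. At 8 h Polr3gl had 39.8, 40.1 and 39.1 and at 24 h 53.2, 50.9 and 43.8. Polr3g was below 0 h in every later library, with log2 fold changes of -0.62 ± 0.0804, -1.33 ± 0.0826 and -1.65 ± 0.0833 at 2, 4 and 24 h (adjusted p = 4.09e-05, 2.82e-09 and 9.39e-11). Polr3gl was higher by 0.50 ± 0.0896 and 0.81 ± 0.0893 after 8 and 24 h (adjusted p = 1.69e-04 and 7.97e-07), the largest rise among the 36 genes.

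The ratio of the pair within a library needs no scaling between libraries. Polr3g over Polr3gl in TPM was 0.578, 0.714 and 0.665 in the 0 h libraries, 0.342, 0.363 and 0.326 in those of 2 h and 0.221, 0.232 and 0.203 in those of 4 h. It was 0.171, 0.17 and 0.193 in those of 8 h and 0.111, 0.116 and 0.128 in those of 24 h. No library after 0 h overlapped the 0 h libraries. The mean was 0.118 ± 0.00904 at 24 h, against 0.652 ± 0.0688 at 0 h (SD, n = 3 each). At 0 h Polr3g was below Polr3gl in TPM but above it in counts (mean log2 ratio 0.679), so their order depends on the annotated lengths. The log2 ratio of counts differed by -2.46 (exact permutation test, two-sided, p = 0.1, the smallest that 3 against 3 can give).

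TFIIIB, which brings Pol III to its start sites, had Bdp1 and Brf2 lower and Brf1 not called at 24 h. Brf1, the version of the TFIIB-like factor used at transfer RNA genes, had 33.5, 31.4 and 31.8 CPM in the 0 h libraries, 31.1, 29.9 and 32.3 in those of 2 h and 29.6, 30 and 29.2 in those of 4 h. At 8 h Brf1 had 29.7, 29.7 and 28.4 and at 24 h 32.2, 34.7 and 39.2. It was not called against 0 h at any time (0.13 at 24 h, adjusted p = 0.116). Brf2, the version used at promoters of the U6 type, had 18.5, 15.6 and 16.4 CPM in the 0 h libraries, 17.9, 18 and 17.5 in those of 2 h and 15.1, 14.6 and 14.4 in those of 4 h. At 8 h Brf2 had 13.8, 12.8 and 13.2 and at 24 h 11.3, 12.3 and 8.92. It was called lower with -0.35 and -0.64 ± 0.104 after 8 and 24 h (adjusted p = 0.00847 and 5.50e-05), the 8 h call being lost with library totals or upper-quartile factors and when any of 6 libraries was left out. Bdp1, the third TFIIIB protein, was called lower with -0.81, -0.96 and -0.46 after 4, 8 and 24 h (-0.67 without 24 h replicate 3), the 24 h call being lost without 24 h replicate 1 or 2 and with library totals or upper-quartile factors. At 2 h it missed the threshold with -0.45 (adjusted p = 0.01003). Brf1 over Brf2 in TPM was 1.18, 1.16 and 1.81 at 24 h, against 0.745, 0.829 and 0.798 at 0 h. All 3 ratios at 24 h were above those at 0 h. The log2 ratio of counts differed by 0.78 (exact permutation test, two-sided, p = 0.1, the smallest possible), or by 0.57 without 24 h replicate 3.

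**Figure D3:**
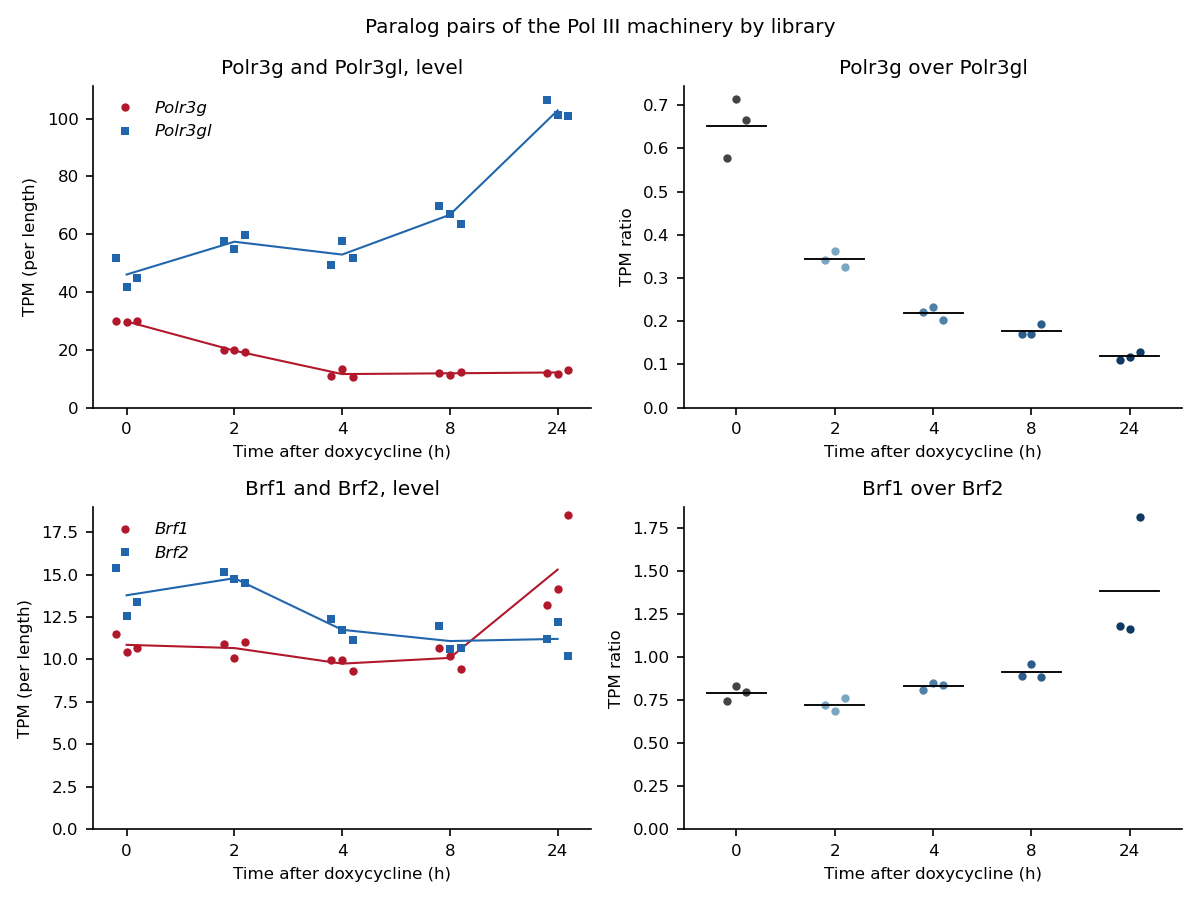
Left, TPM of Polr3g and Polr3gl (top) and of Brf1 and Brf2 (bottom) in each library at 0, 2, 4, 8 and 24 h, with lines through the means of 3. TPM was not scaled by TMM, so these panels compare the genes of a pair within a time and not a gene between times. Which gene of a pair is higher depends on the annotated lengths. Right, the TPM ratio of each pair by library, with the mean as a line. The ratio Polr3g over Polr3gl is at 0.111 to 0.128 at 24 h and at 0.578 to 0.714 at 0 h, and 24 h replicate 3 is the highest point, 1.81, of Brf1 over Brf2.

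Gtf3a (chr5:146948657-146955614, plus strand) encodes TFIIIA, the zinc finger protein that recognises the gene of the smallest ribosomal RNA. It had 156, 158 and 164 CPM in the 0 h libraries, 128, 129 and 124 in those of 2 h and 79.8, 81.9 and 80.3 in those of 4 h. At 8 h Gtf3a had 57.9, 61.8 and 70.3 and at 24 h 69, 65.3 and 49.8. It fell, with -0.98 and -1.38 ± 0.099 after 4 and 24 h (adjusted p = 5.88e-09), with no overlap with 0 h at any time. Its exons share 59.1% of their bases with Mtif3 on the opposite strand, which was also lower at 24 h (-1.10), so the fall cannot be placed on one of these genes by these counts.

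TFIIIC, the complex that binds the internal boxes of transfer RNA genes, had calls in both directions. Of its 6 genes, 1, 1, 1 and 2 were lower at 2, 4, 8 and 24 h, against 8.59%, 19.9%, 25.1% and 28.1% of all tested genes. At these times 1, 2, 1 and 0 were higher, against 6.60%, 18.1%, 25.3% and 30.7%. At 24 h 4 were not called, and the median log2 fold change was -0.11. Gtf3c1, the largest subunit, had 128, 118 and 113 CPM in the 0 h libraries, 116, 115 and 114 in those of 2 h and 125, 110.3 and 114 in those of 4 h. At 8 h Gtf3c1 had 112, 102 and 90.8 and at 24 h 98.9, 99.7 and 140. Gtf3c2 had 41.2, 41.1 and 38 CPM in the 0 h libraries, 39.7, 37.8 and 40.5 in those of 2 h and 37.6, 35 and 32.1 in those of 4 h. At 8 h Gtf3c2 had 31.7, 28.6 and 27.1 and at 24 h 30.9, 32.2 and 50.4. Gtf3c6 had 43.7, 45.2 and 43.2 CPM in the 0 h libraries, 41.1, 45.3 and 45.9 in those of 2 h and 40.3, 41.8 and 42.4 in those of 4 h. At 8 h Gtf3c6 had 38.5, 41.8 and 43.8 and at 24 h 46, 41.2 and 32.8. None of these was called in any comparison. At 8 h Gtf3c2 missed the threshold with -0.46 (adjusted p = 0.0109), although every 8 h library was below every 0 h library. It was called lower there under 13 of 24 alternatives. Gtf3c1 and Gtf3c2 were at their highest in 24 h replicate 3, and without it both were lower at 24 h (-0.27 and -0.35, adjusted p = 0.00302 and 5.15e-04). Exons of Gtf3c2 share 38.9% of their bases with Gm29609 on the same strand.

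Gtf3c4, which carries acetyltransferase activity in the human complex, was lower at all 4 times, with -0.41 and -0.76 ± 0.0741 after 2 and 24 h (adjusted p = 2.21e-07). Gtf3c3 turned: it was higher at 4 h (0.45 ± 0.0791, adjusted p = 2.15e-04), lower at 24 h (-0.53 ± 0.0797, adjusted p = 2.39e-05) and lower at 24 h than at 4 h (-0.98, adjusted p = 7.53e-08). Its libraries ran from 86.7 to 89.1 CPM before doxycycline, 112 to 126 CPM by 4 h and 52.9 to 65.8 CPM by 24 h. Gtf3c5 was higher at 2, 4 and 8 h (0.34, 0.35 and 0.25) and not called at 24 h (0.18). The Gtf3c5 calls at 2 h and 8 h were lost when any 0 h library was left out, that at 4 h without 4 h replicate 1, and that at 8 h under 16 of 24 alternatives.

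Maf1, the repressor that binds Pol III when growth signals fade, had 91.8, 95.1 and 91.5 CPM in the 0 h libraries, 119, 114 and 111 in those of 2 h and 105, 105 and 106 in those of 4 h. At 8 h Maf1 had 95.6, 94.5 and 91.1 and at 24 h 112, 111 and 88.8. It was called higher only at 2 h (0.30 ± 0.0765, adjusted p = 0.0083), a call lost when any one of the 0, 2, 4 or 8 h libraries was left out, with RLE factors and with no filter on low counts. At 24 h it was 0.17 with all libraries (adjusted p = 0.0662) and 0.27 without replicate 3 (adjusted p = 6.94e-05). These counts do not measure the phosphorylation through which Maf1 is known to be controlled.

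**Figure D4:**
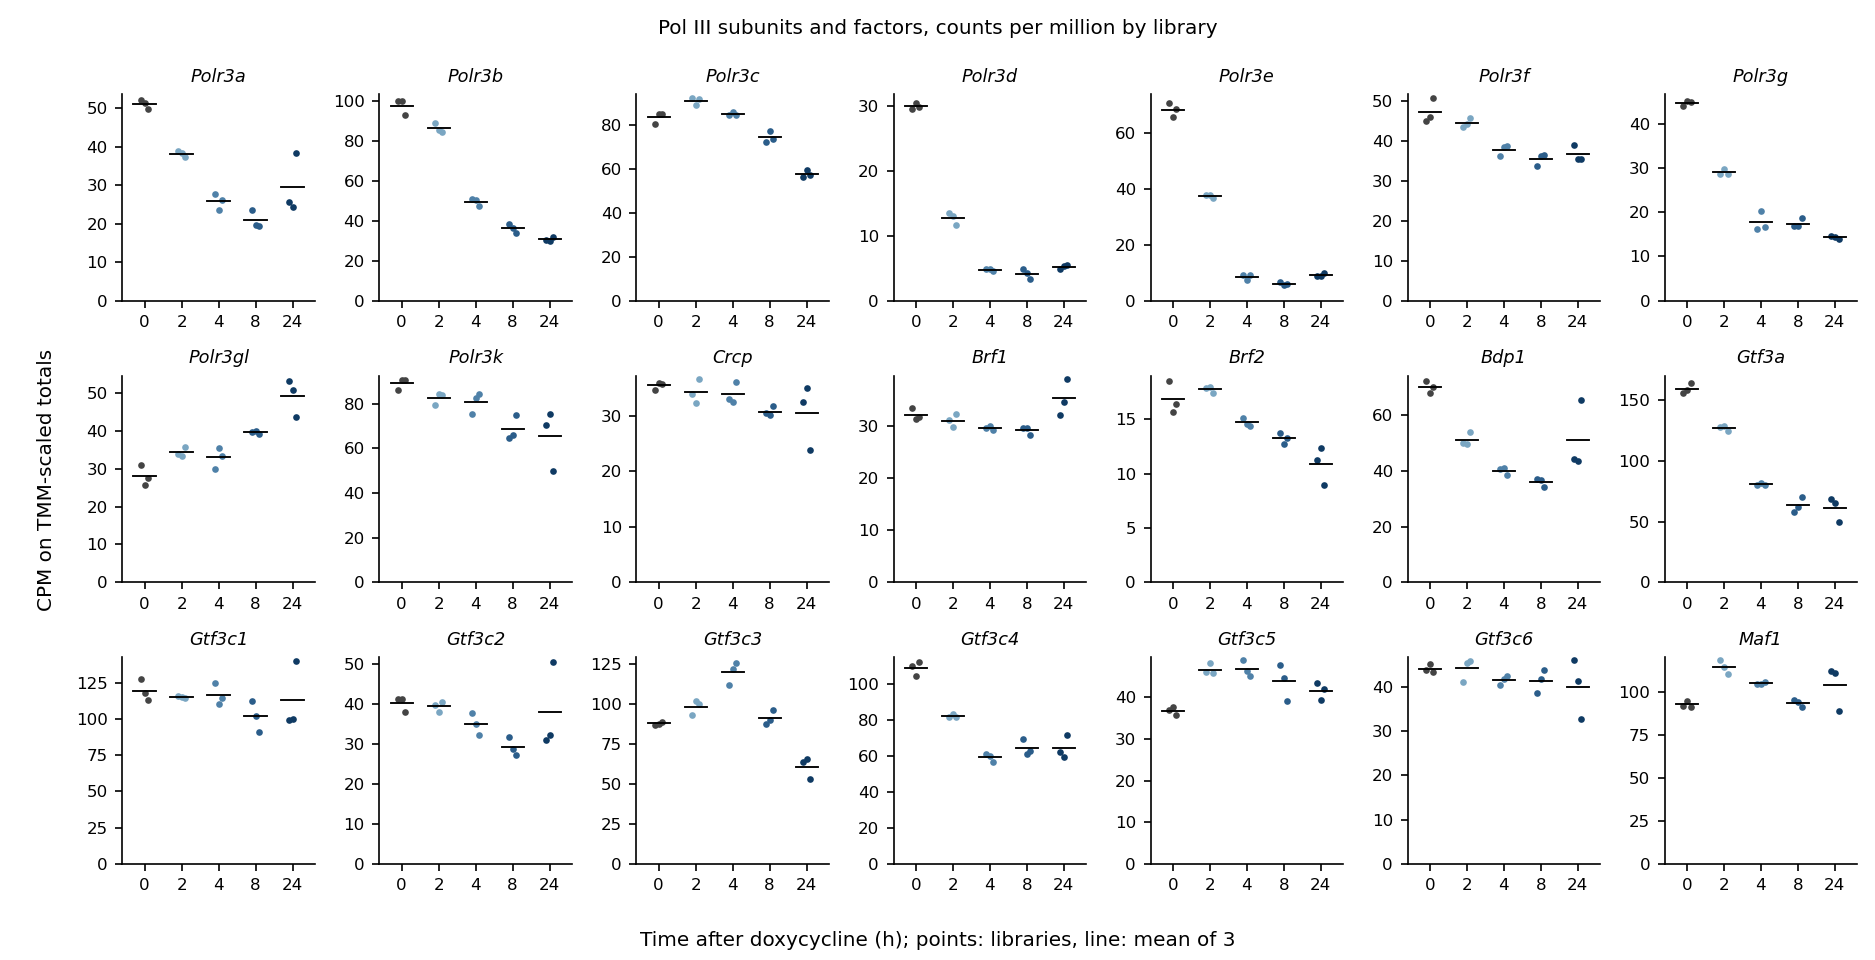
CPM on TMM-scaled totals of the 21 Pol III genes (y axis, from 0) in each library at 0, 2, 4, 8 and 24 h (x axis, not to scale in time). Points are libraries and lines are means of 3. Polr3d and Polr3e drop by 4 h and stay low, Polr3gl is at 43.8 to 53.2 CPM at 24 h and at 25.7 to 30.9 CPM at 0 h, and Gtf3c3 peaks at 4 h.

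Between 4 h and 24 h 22 members did not pass the test. At 24 h against 4 h 11 of the 36 were lower and 3 higher, against 23.4% and 24.9% of all tested genes, and the median was -0.16, where all tested genes had 0.03. Every 24 h library was below every 4 h library for 15 members and above for 5, against 29.8% and 30.8% of all tested genes. The share called lower was near the background. The lower genes were led by Polr1a (-1.0), Gtf3c3 (-0.98), Polr1c (-0.97), Polr1d (-0.77) and Polr3b (-0.69), and the higher ones were Polr3gl (0.58), Ubtf (0.36) and Brf1 (0.26). Without 24 h replicate 3 there were 12 lower and 3 higher, with Polr1e now higher (0.29), Taf1c lower (-0.59) and Brf1 not called (0.18). Of the 14 calls 7 (Ubtf, Rrn3, Taf1d, Polr3g, Brf1, Brf2 and Gtf3a) were lost under at least 1 alternative, whereas 3 of 13, 2 of 22, 4 of 26 and 4 of 27 were lost at 2, 4, 8 and 24 h against 0 h.

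With library totals in place of TMM all tested genes had a median of 0.35 at 24 h, not 0.07, and the calls over all genes split into 6361 higher and 2855 lower, against 4443 and 4076 with TMM. Under that scaling 6 members were higher and 22 lower at 24 h, and with upper-quartile factors 5 were higher and 22 lower, where 5374 of all tested genes were higher and 3387 lower. No member that was called under TMM turned direction under any alternative.

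Subunits that Pol I and Pol III share with RNA polymerase II (Pol II) were set beside those of Pol II alone. Of the 5 shared subunits 4 were lower and 0 higher at 4, 8 and 24 h, with a median of -1.13 at 24 h. Polr2f had 76.6, 77.7 and 76.8 CPM in the 0 h libraries, 57.2, 59 and 57.2 in those of 2 h and 48, 45.9 and 49.1 in those of 4 h. At 8 h Polr2f had 26.9, 30.1 and 29.3 and at 24 h 29.8, 28.1 and 20.1. Every later library was below 0 h. Those lower at 24 h were Polr2f (-1.57), Polr2l (-1.26), Polr2e (-1.13) and Polr2h (-1.06). Polr2k was not called (-0.31). Of the 7 Pol II-specific subunits none was called at 2 h or 4 h, 2 were lower at 8 h, and at 24 h 3 were lower and 1 higher, with a median of -0.35. These were Polr2j (-0.78), Polr2b (-0.66) and Polr2g (-0.42), and, higher, Polr2a (0.77), the largest Pol II subunit, whose 24 h libraries were at 480.1, 466 and 859 CPM, against 366, 398 and 298 CPM at 0 h, with replicate 3 far above the others. Without that library Polr2a was at 0.42, and 4 Pol II-specific subunits were lower and 2 higher with a median of -0.19. The shared subunits then had 4 lower and a median of -0.96. The lists were not tested against each other.

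Partners outside the 36 genes were followed as lists. Of 8 genes for TBP and for the SNAPc complex and factors that serve U6-type promoters, 3 were lower and 2 higher at 24 h. Of all tested genes 28.1% were lower and 30.7% higher. Without 24 h replicate 3, 2 of the 8 were lower and 2 higher. The lower ones were Snapc4 (-0.83, or -1.22 without 24 h replicate 3, its highest 24 h library), Snapc3 (-0.53) and Snapc5 (-0.45), SNAPc subunits. Snapc5 was not called without 24 h replicate 3 (-0.28). The higher ones were Zfp143 (0.60), an activator of such promoters, and Snapc1 (0.53). Tbp, which both enzymes need, was not called (-0.26, adjusted p = 0.0157).

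Of 12 regulators of ribosomal RNA genes and nucleolar proteins, 9 were lower and 2 higher at 24 h, with a median of -1.74. The falls were led by Nolc1 (-3.17) and Npm1 (-3.07), nucleolar chaperones, Ddx21 (-2.92), a helicase, and Heatr1 (-2.46), a ribosome assembly protein. The 2 that rose, named after their values were seen, were Sirt7 (1.03), a nucleolar deacylase, and Baz2a (0.87, or 0.45 without 24 h replicate 3), which silences ribosomal RNA genes. Of 14 genes for transfer RNA end processing 13 were tested, and 10 were lower and none higher at 24 h, with a median of -1.17. Without 24 h replicate 3, 10 were lower and 1 (Pop4, 0.40) was higher, with a median of -1.01. Rpp40 (-3.31), Pop1 (-2.83) and Rpp14 (-1.93), proteins of RNase P, which trims the leading end, and Elac2 (-2.24), which trims the trailing end, fell most. The background at 24 h was 28.1% lower and 30.7% higher, as above.

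**Figure D5:**
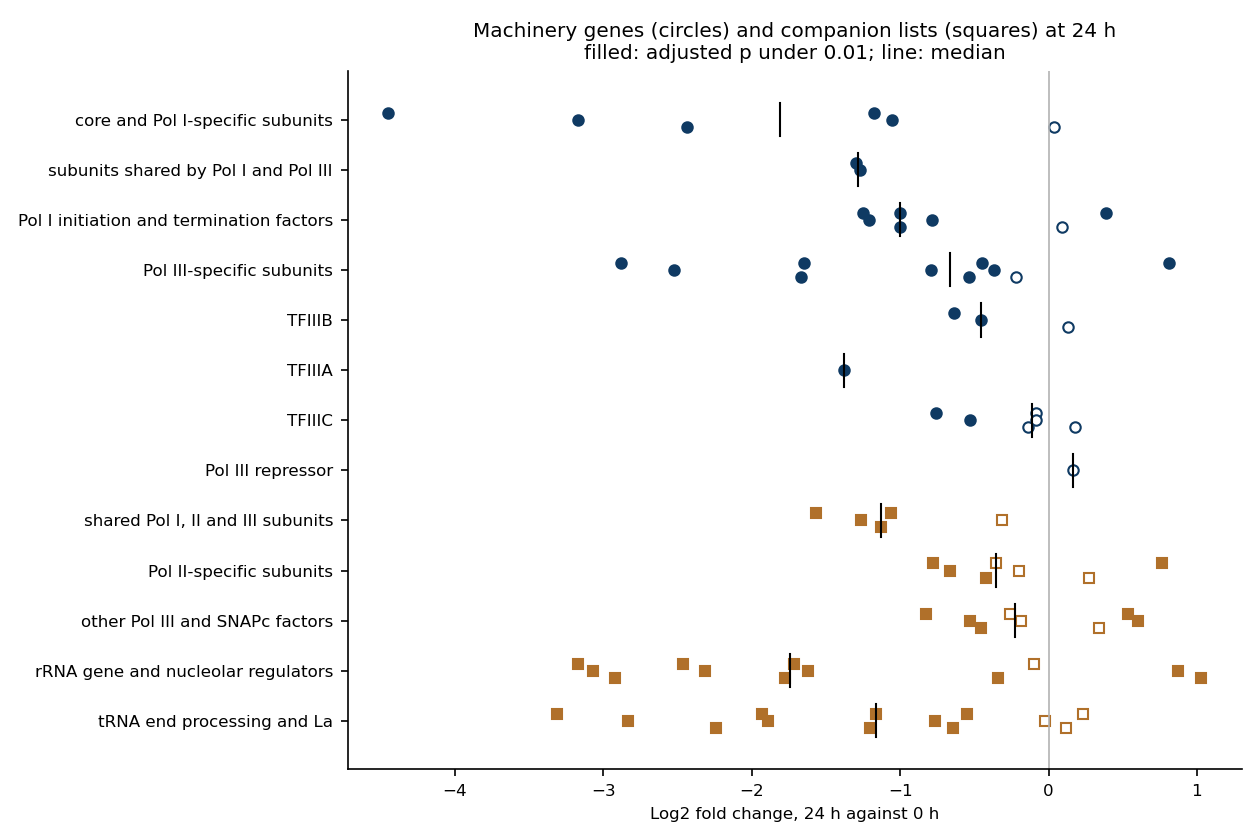
Log2 fold change at 24 h against 0 h (x axis) of the 36 machinery genes by role (circles) and of the companion lists (squares), with 1 point per gene. Filled points passed an adjusted p under 0.01 and vertical lines are medians, -1.81 for the Pol I-specific subunits, -0.66 for the Pol III-specific subunits, -0.11 for TFIIIC and -0.35 for the Pol II-specific subunits.

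The products of Pol I and Pol III carry no polyA tail for the most part, so these polyA libraries hold little of them and the output of the enzymes was not measured. Of 12 listed products 4 passed the filter, and 2 of these were called higher at 24 h, where 30.7% of all tested genes were. With 4 genes, these counts cannot be told apart from that share. Rn7sk, a Pol III transcript, had 1.17, 1.39 and 1.78 CPM in the 0 h libraries, 2.25, 1.05 and 0.888 in those of 2 h and 2.31, 1.35 and 2.1 in those of 4 h. At 8 h Rn7sk had 1.76, 2.63 and 2.53 and at 24 h 4.14, 3.75 and 1.84. It was called higher at 24 h (1.16, adjusted p = 0.00768), although 24 h replicate 3 lay near the 0 h libraries (1.44 without it). Gm42418, which RefSeq names Rn18s-rs5 after a ribosomal RNA sequence, had 5.7, 5.73 and 5.66 CPM in the 0 h libraries, 7.58, 7.92 and 6.57 in those of 2 h and 19.5, 15.4 and 14.4 in those of 4 h. At 8 h Gm42418 had 14.4, 38 and 22.4 and at 24 h 24.9, 30.1 and 17.3. It was higher by 2.08 at 24 h (adjusted p = 9.66e-06). Bc1 (0.63, or 0.90 and called higher without 24 h replicate 3) and Gm26917 (0.10) were not called at 24 h. How much RNA without a polyA tail entered each library was not measured.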

How the data were processed

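PolyA RNA of 15 libraries (0, 2, 4, 8 and 24 h, 3 each) was sequenced. Per the submitters' processing notes the authors used cutadapt 1.16, STAR 2.5.4b and featureCounts with the mm10 build, and their roles are named there without settings. The authors deposited, per library, whole-number counts per gene with the human MYC transgene as 1 further feature, together with TPM, which they computed from counts and feature length. A deposited FPKM column, which the authors scaled by length and library total, was not used. Of 53380 features, 53274 matched GENCODE M21. Promoters came from RefSeq windows on GRCm38.p6.

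Counts were tested here with edgeR 4.0.16 (R 4.3.3, limma 3.58.1): filterByExpr left 14485 genes, libraries were scaled by TMM, and one quasi-likelihood fit over the 5 times gave each contrast and a time course F-test. Calls needed an adjusted p under 0.01 (Benjamini-Hochberg, over the whole table). The 4 comparisons with 0 h share the 0 h libraries. The script was tested on simulated data. Total counts of 25852711 to 27102318 per library set the counting error. Ratios of paralogs are printed in TPM within a library. Their log2 differences and two-sided exact permutation tests used ratios of counts, with a small constant added to each count. The 36 members and the companion lists were chosen with earlier results of these data known. Values in every library are given for members with a called change of at least 1 in log2, for the paralogs, for Maf1 and for members never called, the rest being summarised. From companion lists, up to 4 genes with the largest called change are named, or all where 5 or fewer were called. One gene of a companion list is not reported here. Alternatives were other scalings, filters, thresholds, DESeq2 1.42.0, fits on the times compared, a replicate block and each library left out.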

Additional observations from a re-analysis of the deposited data

How the results depend on the processing

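Of 102 calls of machinery genes over the 5 comparisons, 82 held under every alternative run, 20 were lost under at least 1 and none was reversed. At 2 h, 2 higher calls became 1 with RLE size factors, 1 with no filter on low counts and 5 when only the times compared were fitted, and 11 lower calls became 17 with DESeq2, 19 when only the times compared were fitted and 17 at an adjusted p under 0.05. Over all tested genes 956 higher calls at 2 h became 2432 when only the times compared were fitted, and 1244 lower calls became 1898 with DESeq2, 2794 when only the times compared were fitted and 1898 at an adjusted p under 0.05. At 4 h, 2 higher calls became 6 with upper-quartile factors and 5 at an adjusted p under 0.05. At 24 h, 2 higher calls became 6 with library totals, 5 with upper-quartile factors and 1 when only the times compared were fitted. Between 24 h and 4 h, 3 higher calls became 9 with library totals and 1 when only the times compared were fitted, and 11 lower calls became 6 under both. The cause was not tested.

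Leaving out each library in turn gave 0 to 3 higher and 10 to 17 lower at 2 h, 1 to 6 and 20 to 21 at 4 h, 1 to 3 and 21 to 27 at 8 h, 2 to 3 and 24 to 27 at 24 h, 2 to 4 and 8 to 12 between 24 h and 4 h, and 26 to 31 genes changed over the time course. Without 24 h replicate 3 there were 17 lower at 2 h and 6 higher at 4 h. The fit takes its estimate of spread from all times. The lowest higher count at 2 h came with any 0 h library left out, and also with 2 h replicate 1 or 2 left out, that at 4 h without 4 h replicate 1 and that at 8 h without 8 h replicate 1. The log2 difference of Polr3g over Polr3gl ran from -2.54 to -2.39 and that of Brf1 over Brf2 from 0.57 to 0.89.

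Replicate numbers were shared between times. Of 30 pairs of libraries with the same number 3 had a correlation of deviations over 0.1 (range -0.31 to 0.21), and 9 of 15 libraries correlated best with their own number. The median correlation was 0.0254 for pairs with the same number and -0.0094 for the others. These values do not settle whether the numbers pair samples. The main fit took no pairing, and a fit with a replicate block was run beside it. With the replicate block the higher and lower counts were 2 and 11 (2 h), 2 and 20 (4 h), 3 and 22 (8 h, the call lost being Polr3k), 2 and 25 (24 h) and 2 and 11 (24 h against 4 h), with 28 genes changed over the time course, and the exact p of the Polr3g and Brf1 ratios was 0.25, the smallest that 3 pairs can give. All members lay above the level that a count of 0 allows, so all were detected. Whether depth limited any call was not tested. With 3 libraries a time, small changes may have been missed.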
